A study of Homo sapiens with 3 samples.

Results

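The genes TP63, SOX9, BCL11A, GATA3, FOXA1, ELF3, ELF5, EHF, GRHL2 and ESR1 encode transcription factors that mark or specify the basal and luminal cells of the breast. They were taken by symbol and matched to 10 of the 56632 gene IDs in the deposited tables, and 9 of the 10 were among the 13312 genes that reached 1 CPM (a count scaled to library size) in at least 1 library. The exception was ELF5. RNA was sequenced from MCF10Ca1h, an established human breast cancer line of the MCF10 series, with 1 library for each of 3 groups. Untreated cells gave the library called NT, for which no time was given. Cells exposed for 72 h to GSK484, an inhibitor of the citrullinating enzyme PADI4, gave the library called GSK484. Cells exposed for 72 h to the control compound gave the library called CON. The treatment text calls that compound GSK107 and the deposited table of the library calls it GSK106. All cells grew in the same serum-containing medium, no allele differs between the groups by their labels, and no dose was given.

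There were no replicates, so no difference between conditions could be set against replicate error. Each difference below is between 2 single libraries. Its 95% interval, from the exact conditional binomial (Clopper-Pearson) method, covers counting error only. Reads without molecular identifiers are not independent molecules. A gene is called higher or lower beyond counting error where that interval excluded no difference and the larger CPM was at least 1. The size rule also asked for a fold of at least 2. Total expected counts ran from 70555229 to 92980847 per library. Where no read was counted, the limit is 3 counts, and that floor equals 0.0421 CPM for NT, 0.0329 for CON and 0.0385 for GSK484.

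The mammary epithelium is made of an outer basal layer, which contracts and anchors the duct, and an inner luminal layer, which lines it and makes milk. TP63 maintains basal cells. GATA3, FOXA1 and the estrogen receptor gene ESR1 form the core of the hormone-responsive luminal programme, with FOXA1 opening chromatin for the receptor. SOX9 and ELF5 are associated with luminal progenitors, and BCL11A with progenitors and basal-like breast cancers. ELF3, ELF5 and EHF are ETS factors found mainly in epithelia, and GRHL2, of the Grainyhead family, sustains genes of epithelial junctions.

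The libraries carried basal and luminal markers together. KRT5, the basal keratin, stood at 685, 592 and 768 TPM (a level scaled to transcript length) in NT, CON and GSK484. KRT8, a luminal keratin, stood at 3922, 3741 and 4062 TPM in the same order, and EPCAM, an epithelial surface protein gene, at 330, 311 and 334 TPM. Both keratins had reads that were divided with other genes. KRT14, the partner of KRT5, was much lower, at 11.9 to 13.8 TPM. KRT19 was at 2.69 to 3.73 TPM. The progesterone receptor gene PGR and the luminal progenitor receptor gene KIT were listed at 0 TPM in every library. The leukocyte gene PTPRC, the T cell gene CD3E and the adipocyte gene ADIPOQ were also at 0 in all 3. Of 16 matched markers of other cell types, 9, 8 and 7 had a count of 0 in NT, CON and GSK484, and their summed level was 14.7, 15.0 and 13.7 TPM, with CD14, a monocyte receptor gene, the highest at 4.91 to 6.75 TPM. In bulk RNA, fewer cells of a type and less RNA per cell cannot be told apart.

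The 10 factors covered a wide range of levels per length. ELF3 was highest, at 105, 119 and 82.8 TPM in NT, CON and GSK484, and it alone made up 46.2%, 50.9% and 40.6% of the summed TPM of all 10. SOX9 followed at 49.7, 47.3 and 51.8 TPM. FOXA1 came next, at 24.2, 22.2 and 20.1 TPM, then GATA3 at 15.6, 15.4 and 17.2 TPM. GRHL2 lay at 10.1 to 11.3 TPM. TP63, at 8.01 to 9.44 TPM, and EHF, at 7.75 to 9.31 TPM, were the only neighbours in this order whose ranges over the 3 libraries overlapped. BCL11A was at 2.79 to 3.89 TPM and ESR1 at 0.24 to 0.33 TPM. ELF5 was at 0.01 TPM or less. Among all measured genes ELF3 exceeded 87.1% to 91.5% by TPM and SOX9 80.3% to 80.9%, while ESR1 lay in the lowest 1.1%. The factors of both layers were thus detected in the same libraries, apart from ELF5.

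**Figure D1:**
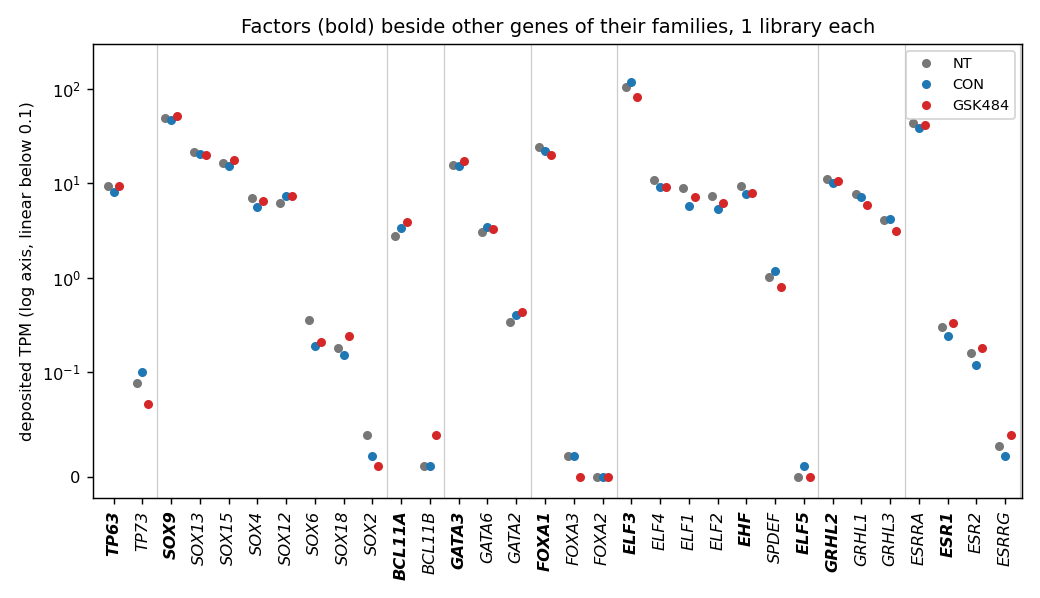
Deposited TPM (log axis, linear below 0.1) of the 10 factors, in bold, and of the other genes of their families with most signal, 1 point per library, for untreated cells (NT), control compound (CON) and GSK484. ELF3 reaches 119 TPM and is the highest point shown, and ELF5 lies at the bottom of the ETS group at 0.01 TPM or less.

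**Figure D2:**
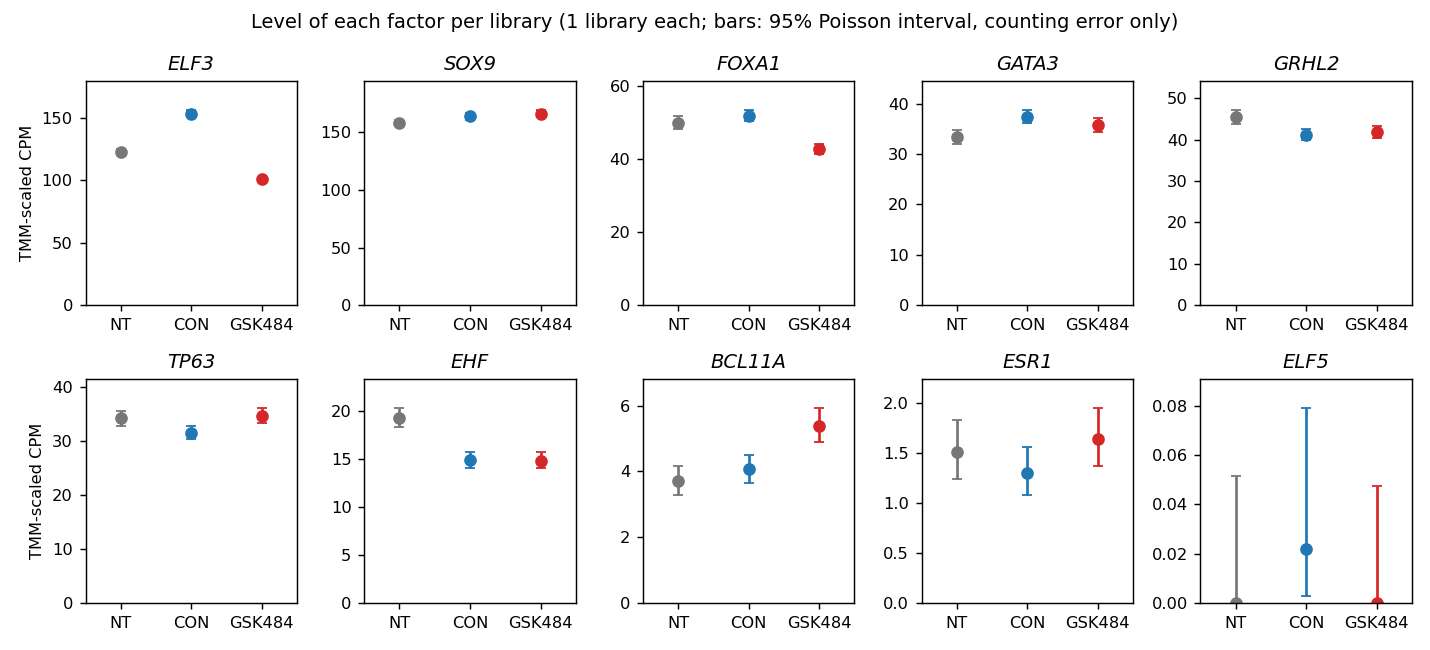
TMM-scaled CPM of each factor in the 3 libraries, on axes that start at 0, with bars for the 95% Poisson interval of the count. ELF3 is lowest in GSK484, at 101 CPM, and BCL11A is highest there, at 5.39 CPM, while SOX9 stays between 158 and 166 CPM.

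Setting GSK484 against CON compares the inhibitor with its control compound at the same time point, within a study that asks how PADI4 bears on breast cancer stem cells. ELF3 and FOXA1 were lower in GSK484, BCL11A and TP63 were higher, and SOX9, GATA3, EHF, GRHL2 and ESR1 lay within counting error. No factor reached a fold of 2. Counting error was exceeded in either direction by 4 of 9 measured factors, where 54.3% of all 13199 genes tested exceeded it. The 2 higher factors stand beside 26.9% of all genes that were higher, and the 2 lower factors beside 27.4% that were lower. The size rule was met by 0 factors and by 0.47% of all genes (26 higher and 36 lower, or 37 and 29 by total counts and 50 and 33 by TPM). The factors' median log2 fold was 0.02 and that of all genes -0.01. These shares are close to the background or below it, so they are no result about the factors as a group.

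**Figure D3:**
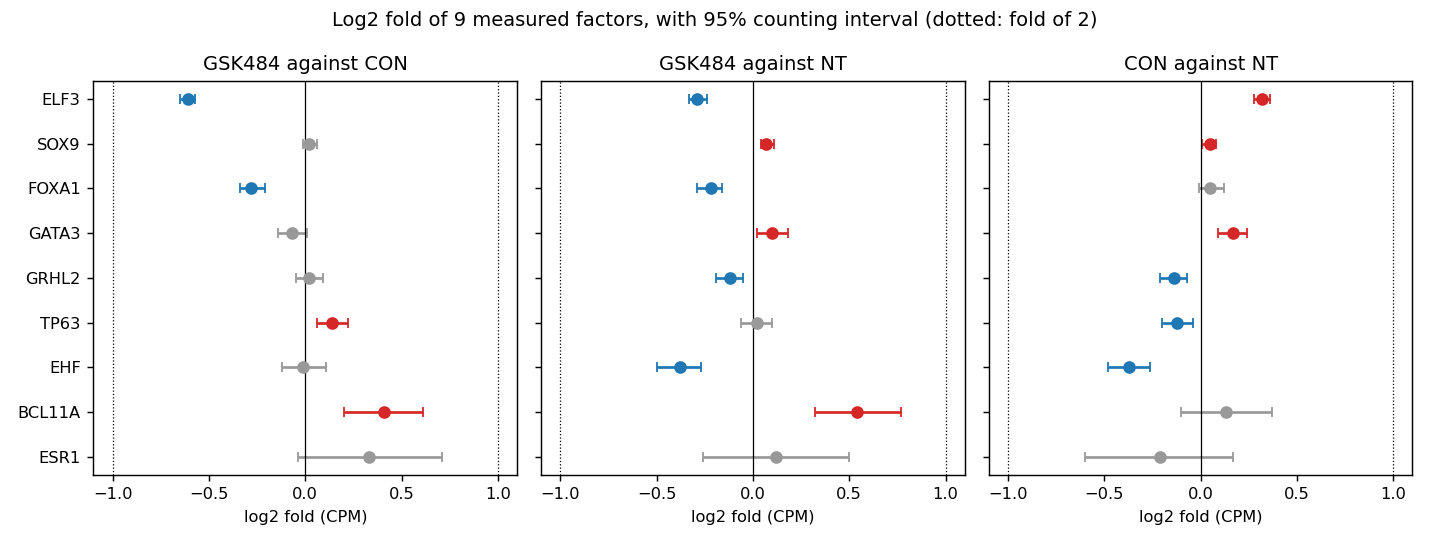
Log2 fold of CPM for the 9 measured factors in the 3 comparisons, with 95% counting intervals. Red and blue points are higher and lower beyond counting error, grey points are within it, and dotted lines mark a fold of 2, which no interval crosses. ELF3 reaches -0.61 for GSK484 against CON and 0.32 for CON against NT.

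Among the factors of the basal and progenitor programmes, BCL11A, a zinc finger repressor, gave the highest fold. It had 264, 371 and 420 expected counts in NT, CON and GSK484, or 3.70, 4.07 and 5.39 CPM. GSK484 was the highest of the 3 libraries, and its Poisson interval of 4.89 to 5.93 CPM did not overlap those of NT (3.27 to 4.18) or CON (3.66 to 4.50). The log2 fold was 0.41 against CON (interval 0.20 to 0.61) and 0.54 against NT (0.32 to 0.77), at or above 93.8% and 98.3% of all tested genes. CON and NT differed by 0.13 (interval -0.10 to 0.37). On the TPM scale the fold against CON was 0.19 and its interval of -0.01 to 0.40 no longer excluded no difference. The mean length of BCL11A transcripts, which RSEM weights by the estimated share of each of 12 transcripts, was 1749, 1479 and 1799 bases in NT, CON and GSK484. TPM divides by that length, while CPM leaves the difference in length uncorrected, so neither fold is free of the isoform mixture.

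TP63 had 2437 counts in NT, 2876 in CON and 2705 in GSK484, or 34.2, 31.5 and 34.7 CPM. CON was the low library, and NT and GSK484 were level with each other. GSK484 lay above CON by a log2 fold of 0.14 (interval 0.06 to 0.22), and against NT it was within counting error (0.02, -0.06 to 0.10). CON lay below NT by 0.12 on the log2 scale. These small differences depended on the processing. With a smooth trend on GC content and length removed, TP63 was 0.02 against CON, within counting error, and CON against NT changed sign to 0.15. The longest TP63 transcript has a GC content of 42.5%, the second lowest of the 10 factors, and the trend fitted at its GC content and length was -0.26 for CON against NT and 0.11 for GSK484 against CON.

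SOX9 gave 11290, 14952 and 12967 counts in NT, CON and GSK484, or 158, 164 and 166 CPM. Its single annotated transcript leaves no isoform mixture to estimate. The log2 folds were 0.02 for GSK484 against CON (interval -0.01 to 0.06), 0.07 against NT (0.04 to 0.11) and 0.05 for CON against NT (0.01 to 0.08). SOX9 was the steadiest of the abundant factors by CPM, and the high count makes even a 1.05-fold difference exceed counting error. Ratios of counts inside a library need no scaling between libraries. ELF3 counts were 0.774, 0.935 and 0.604 of SOX9 counts in NT, CON and GSK484. For FOXA1 the ratio to SOX9 was 0.315, 0.316 and 0.257. BCL11A gave 0.0234, 0.0248 and 0.0324. ELF3 and FOXA1 were lowest in GSK484, and BCL11A highest, by these ratios. SOX9 differed little by CPM, so the ratios follow the CPM order and are no separate support for it.

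ELF3, an ETS factor of differentiated epithelium, showed the lowest fold against CON. It had 8741, 13982 and 7835 expected counts in NT, CON and GSK484, or 123, 153 and 101 CPM. The 3 libraries were well separated by counting error, with CON highest and GSK484 lowest. GSK484 was 1.52-fold below CON (log2 fold -0.61, interval -0.65 to -0.57), at the 1.2 percent mark of all tested genes, and 1.22-fold below NT (-0.29, -0.33 to -0.24). CON lay above NT by 0.32 (0.28 to 0.36). The GSK484 folds kept their direction on the TPM scale (-0.52 against CON and -0.35 against NT) and once the GC and length trend was taken out (-0.53 and -0.38). CON above NT was smaller by both, at 0.17 and 0.16.

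ELF3 was the only factor of the 10 whose expected counts were not whole, which marks reads that RSEM divided between genes. It overlaps the antisense gene ELF3-AS1 and a sense intronic RNA gene, ENSG00000249007, in GENCODE 29, both chosen here after their values were seen. Added together, the 3 genes had 8947.00, 14285.00 and 7986.00 counts in NT, CON and GSK484, whole in every library, and ELF3 held 97.7%, 97.9% and 98.1% of them. The log2 fold of the sum was -0.61 against CON and -0.29 against NT. ELF3-AS1 itself was at 1.77, 1.93 and 0.948 CPM in NT, CON and GSK484, with a log2 fold of -1.02 against CON (interval -1.43 to -0.62) and -0.90 against NT (-1.33 to -0.47). The sources used here do not give the strand setting of the counting, so the ELF3 and ELF3-AS1 values may share reads. RNPEP, the protein-coding gene within 5000 bases of ELF3, was at 196, 222 and 207 CPM, with a log2 fold of -0.10 against CON and 0.08 against NT.

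FOXA1, the pioneer factor of luminal cells, was the other factor below both libraries. It had 3560, 4730 and 3329 counts in NT, CON and GSK484, or 49.9, 51.8 and 42.7 CPM, all whole. NT and CON lay close together and GSK484 lay under both, with no overlap of Poisson intervals. The log2 fold was -0.28 against CON (interval -0.34 to -0.21) and -0.22 against NT (-0.29 to -0.16), while CON against NT was within counting error (0.05, -0.01 to 0.12). By TPM the values were -0.15 and -0.27, and with the trend removed -0.24 and -0.24. All 3 measures placed GSK484 below both libraries.

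Promoter sequences were available in RefSeq (GRCh38.p14) for 8 of the 10 factors, SOX9 and GRHL2 not among them. For each factor only the first listed promoter was used, and any other start of the gene was not searched. Which start these cells use was not tested. The promoters of ELF3 and FOXA1 are shown because these 2 genes were lower in GSK484 than in both other libraries. Each run goes from 250 bases before the annotated start to 50 after it, on the gene's own strand. Capitals mark TATAAA, the TATA box letters, and GGAAGT, a core that ETS factors bind, on either strand.
ELF3 promoter, GRCh38.p14 chr1:202010337-202010636, plus strand: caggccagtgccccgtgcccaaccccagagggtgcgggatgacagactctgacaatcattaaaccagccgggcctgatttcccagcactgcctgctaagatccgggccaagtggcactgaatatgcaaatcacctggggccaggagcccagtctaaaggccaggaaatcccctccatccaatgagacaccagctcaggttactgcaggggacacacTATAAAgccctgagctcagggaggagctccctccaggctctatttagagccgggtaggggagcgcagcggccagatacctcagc
FOXA1 promoter, GRCh38.p14 chr14:37595200-37595499, minus strand: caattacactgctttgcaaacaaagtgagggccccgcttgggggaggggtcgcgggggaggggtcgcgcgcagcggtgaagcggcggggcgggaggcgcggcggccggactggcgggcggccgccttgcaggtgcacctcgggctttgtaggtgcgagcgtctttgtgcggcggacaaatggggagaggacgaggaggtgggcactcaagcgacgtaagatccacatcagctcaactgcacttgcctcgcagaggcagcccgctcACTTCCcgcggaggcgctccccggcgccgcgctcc
The ELF3 promoter holds TATAAA starting 34 bases before the annotated start, has a GC content of 59.0% and 7 CG dinucleotides. The FOXA1 promoter holds no TATAAA, has a GC content of 69.3% and 34 CG dinucleotides, and carries GGAAGT on the opposite strand starting 15 bases after the start. Of 35116 promoters of the same length, 11.5% hold TATAAA and 22.8% hold GGAAGT, and the median is 14 CG dinucleotides. Among the 8 factors, TATAAA occurred in 2 promoters (TP63 and ELF3) and GGAAGT in 2 (BCL11A and FOXA1). The GATA core AGATAA occurred in none of the 8 and in 10.3% of all promoters. None of the 8 held the SOX core ACAATG, which 10.8% of all promoters hold. The Grainyhead core AACCGG, in 7.23% of all, was also not among these letters. The BCL11A core TGACCA occurred in 2 (BCL11A and ELF5), beside 10.7% of all. The forkhead core TGTTTAC occurred in 1 (ELF5), beside 3.42% of all. The palindromic estrogen response element was in none, beside 0.057% of all. Both strands were searched throughout, each motif in a single fixed spelling, so sites spelled otherwise were not counted.

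GATA3, the zinc finger factor of luminal identity, had 2376, 3410 and 2783 counts in NT, CON and GSK484, or 33.3, 37.4 and 35.7 CPM. GSK484 lay between the other libraries. Against CON its log2 fold was -0.07 (interval -0.14 to 0.01), and against NT 0.10 (0.02 to 0.18). The sign against CON depended on the measure, since the TPM fold was 0.15. The weighted transcript length was 2697, 2803 and 2609 bases, longest in CON. GATA3-AS1, its antisense neighbour, stayed at 0.139 CPM or less.

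ESR1 was close to the limit of measurement, with 108, 119 and 128 counts in NT, CON and GSK484, or 1.51, 1.30 and 1.64 CPM. Its Poisson intervals overlapped in all 3 libraries. The log2 fold was 0.33 against CON (interval -0.04 to 0.71), 0.12 against NT (-0.26 to 0.50) and -0.21 for CON against NT (-0.60 to 0.17). The call against CON depended on the measure, since the interval excluded no difference by TPM (0.34, 0.05 to 0.79) and, starting at 0.00, by total counts (0.37). Of 21 estrogen receptor target genes 14 were measured, and TFF3, AGR3, PGR and CXCL12 were listed at 0 TPM throughout. Of the measured ones, AGR2 was at 32.4 to 47.7 TPM and SLC39A6 at 20.7 to 27.6 TPM. NRIP1 was at 2.56 to 6.03 TPM and NAT1 at 2.79 to 4.47 TPM.

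EHF, another ETS factor, had 1376, 1359 and 1153 counts in NT, CON and GSK484, or 19.3, 14.9 and 14.8 CPM. NT was the high library, and the 2 libraries from treated cells were level. The log2 fold was -0.01 for GSK484 against CON (interval -0.12 to 0.11), -0.38 against NT (-0.50 to -0.27) and -0.37 for CON against NT (-0.48 to -0.26). By TPM the differences from NT were smaller, -0.22 and -0.26, and the weighted transcript length of EHF was 2623, 2262 and 2345 bases. ELF5, the ETS factor of luminal progenitors and milk-producing cells, had 0, 2 and 0 counts, at or under the floor in every library, so no fold is given.

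GRHL2 had 3241, 3757 and 3254 counts in NT, CON and GSK484, or 45.5, 41.2 and 41.8 CPM. Like EHF it was highest in NT, with the treated libraries level. GSK484 against CON was within counting error (0.02, interval -0.05 to 0.09), and log2 folds against NT were -0.12 for GSK484 (-0.19 to -0.05) and -0.14 for CON (-0.21 to -0.07).

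GSK484 against NT sets inhibitor-treated cells against untreated ones, whose time in culture is not given. It shares the GSK484 library with the comparison above. BCL11A, GATA3 and SOX9 (3 of 9, beside 27.3% of all genes) were higher and EHF, ELF3, FOXA1 and GRHL2 (4 of 9, beside 29.5%) lower, with TP63 and ESR1 within counting error. In either direction 7 of 9 factors exceeded counting error, beside 56.8% of 13209 genes, and 0 met the size rule, beside 0.545%. The median log2 fold was 0.02 for the factors and 0.00 for all genes. CON against NT compares the control compound with no treatment. ELF3, GATA3 and SOX9 (3 of 9, beside 35.5% of all genes) were higher, EHF, GRHL2 and TP63 (3 of 9, beside 29.4%) lower, and BCL11A, FOXA1 and ESR1 within counting error. That is 6 of 9, beside 64.9% of 13221 genes, with 0 meeting the size rule, beside 1.68%. The median was 0.05 for the factors and 0.03 for all genes.

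**Figure D4:**
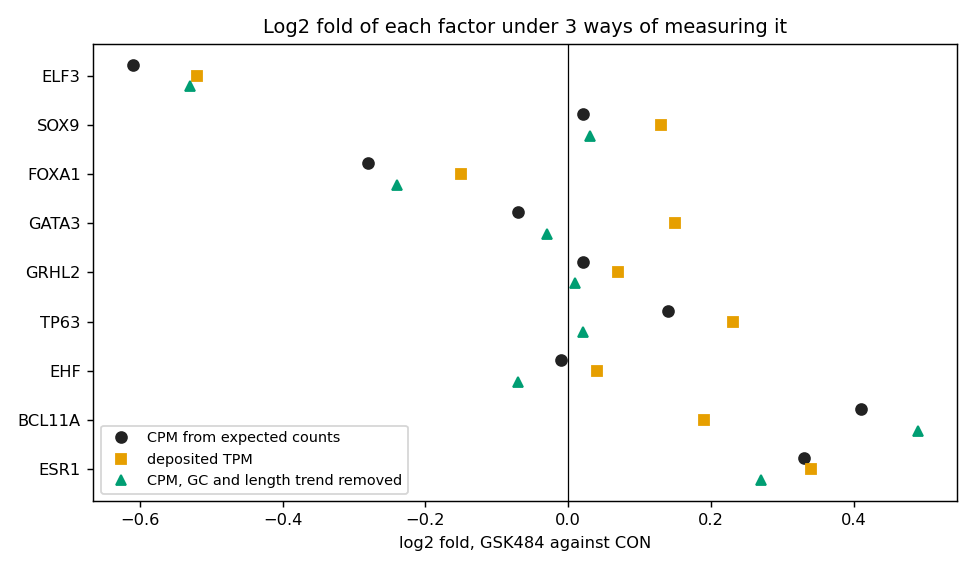
Log2 fold for GSK484 against CON of each factor by CPM (circles), deposited TPM (squares) and CPM after removal of a trend on GC content and length (triangles). ELF3 and FOXA1 lie left of 0 by all 3 measures, BCL11A right of 0 by all 3, and GATA3 moves from -0.07 to 0.15.

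The TPM scale shifted most genes upward in this comparison. Its median over all tested genes was 0.10 for GSK484 against CON, where CPM gave -0.01. Set against that median, the TPM intervals of ELF3 (-0.56 to -0.48) and FOXA1 (-0.21 to -0.08) lay wholly below it, and that of TP63 (0.16 to 0.31) wholly above it. The intervals of BCL11A (0.19, -0.01 to 0.40), ESR1 (0.34, 0.05 to 0.79), GATA3 (0.15, 0.08 to 0.23), GRHL2 (0.07, 0.00 to 0.14) and EHF (0.04, -0.07 to 0.16) held it, and SOX9 (0.13, 0.10 to 0.17) bordered on it.

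The families of the factors hold further genes. Of 32 relatives, 12 reached 1 TPM in a library and 8 had no count in any. For GSK484 against CON, 13 relatives could be compared, of which 7 were lower (beside 27.4% of all genes), 2 higher (beside 26.9%) and 4 within counting error. Their median was -0.10 by CPM and 0.01 by TPM, beside -0.01 and 0.10 for all genes. The lowest were SPDEF, an ETS factor of secretory epithelium (-0.66, interval -1.05 to -0.29), and the Grainyhead genes GRHL3 (-0.49, -0.65 to -0.33) and GRHL1 (-0.39, -0.49 to -0.29). SPDEF, at only 1.17 CPM in GSK484, was within counting error against NT (-0.36, -0.78 to 0.06). Both Grainyhead relatives were also lower than in NT, by -0.36 and -0.38, while GRHL2, the most abundant of the 3 by TPM, stood at 0.02 and -0.12. SOX13 was at -0.19 against CON (-0.25 to -0.13) and within counting error against NT (-0.06). By TPM, ESRRA, an orphan relative of the estrogen receptor with divided reads, was at 38.9 to 43.6, far above ESR1. SOX13 was at 20.0 to 21.5 TPM and SOX15 at 15.2 to 17.6. ELF4 lay at 9.08 to 10.99 TPM, ELF1 at 5.80 to 8.87, ELF2 at 5.41 to 7.38, SOX12 at 6.23 to 7.36 and SOX4 at 5.64 to 7.07. GRHL1 was at 5.94 to 7.66 TPM, GRHL3 at 3.15 to 4.24, GATA6 at 3.06 to 3.41 and SPDEF at 0.80 to 1.18. FOXA2 had no count, FOXA3 reached 0.02 TPM and BCL11B 0.04 TPM, so FOXA1 and BCL11A were the expressed members of their families.

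**Figure D5:**
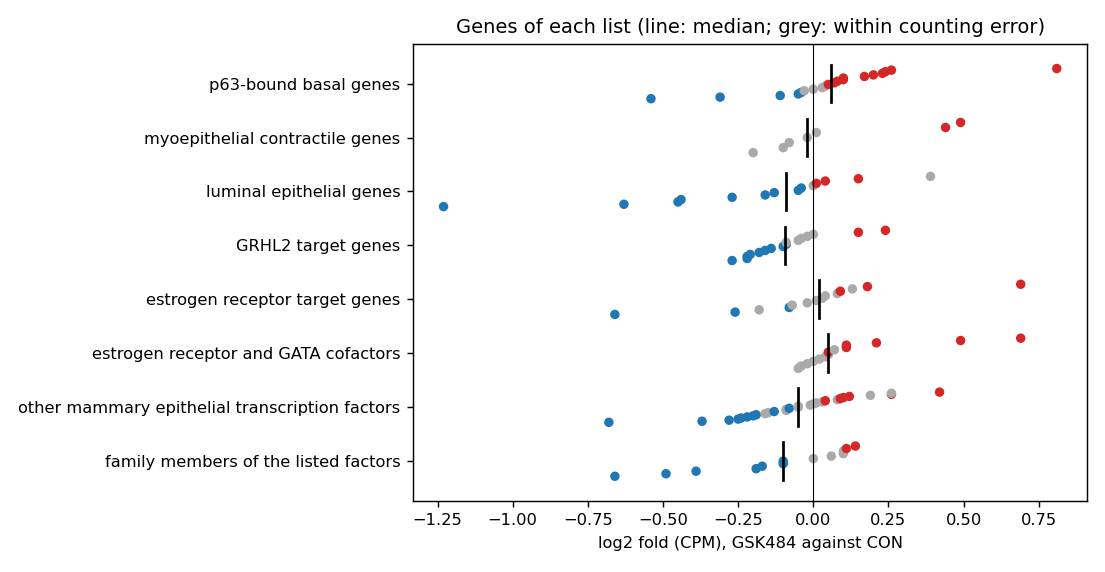
Log2 fold (CPM) for GSK484 against CON of each measured gene in 8 lists, with a black line at the list median. Red and blue points are higher and lower beyond counting error and grey points are within it. Luminal genes have a median of -0.09 and p63-bound basal genes of 0.06, and both lists have genes on both sides of 0.

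Genes known to be bound or driven by the factors were described from lists chosen with earlier results of these data known. Each count of a list stands beside the shares of all genes given above, 26.9% higher and 27.4% lower for GSK484 against CON, and 27.3% and 29.5% against NT. Such shares depend on abundance, since a small fold exceeds counting error more readily at high counts. The basal and luminal lists hold abundant genes, while the shares cover all genes from 1 CPM. Against CON, COL17A1 (443 CPM in GSK484) was called higher at 0.05 and KRT8 (5470 CPM in GSK484) at 0.01. The medians stand beside all-gene medians of -0.01 against CON (0.10 by TPM) and 0.00 against NT. Of 20 basal genes bound by p63, 11 were higher in GSK484 than in CON, 5 lower and 4 within counting error, with a median of 0.06. DST, a hemidesmosome linker gene, had a log2 fold of 0.81 and KRT5, with divided reads, of 0.26, while IGFBP3, an IGF-binding protein gene, had -0.54 and KRT14, with divided reads, -0.31. Against NT, 9 were higher and 8 lower, with a median of -0.03, and DST was lower (-0.45). Of 14 luminal epithelial genes, 9 were lower than in CON, 3 higher and 2 within counting error, with a median of -0.09, or -0.01 once the GC and length trend was taken out. CXCL17, a mucosal chemokine gene, had -1.23, LCN2, an iron-binding defence protein gene, -0.63, SLPI, a protease inhibitor gene, -0.45 and KRT19 -0.44. Against NT 6 of 13 luminal genes were higher and 5 lower, with a median of 0.01. LCN2 (-0.17), SLPI (-0.20) and KRT19 (-0.40) were lower there too. CXCL17 reached 1 CPM in CON alone (0.884, 1.58 and 0.668 CPM in NT, CON and GSK484), so its fold against NT is not given.

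GRHL2 target genes include those of tight and adherens junctions, beside genes of other functions. Of 16 such targets, 9 were lower, 2 higher and 5 within counting error against CON (all genes 27.4% lower and 26.9% higher). The median of the list was -0.10, or -0.01 by TPM, where all genes gave 0.10. CLDN4, a claudin gene, had -0.27, CDH1, the E-cadherin gene, -0.22, RAB25, a vesicle transport gene, -0.22 and MARVELD2, the tricellulin gene, 0.24. Against NT 6 were higher and 5 lower, with a median of 0.00. Estrogen receptor targets had 3 higher, 3 lower and 8 within counting error against CON, with a median of 0.02. AGR2, a secretory pathway disulfide isomerase gene, was at 28.1 CPM in CON, 23.2 in NT and 17.8 in GSK484, with a log2 fold of -0.66 against CON and -0.38 against NT. NAT1 had -0.26 and SLC39A6, a zinc transporter gene, 0.18. NRIP1, a nuclear receptor corepressor gene with divided reads, had 0.69 against CON and -0.42 against NT, with CON lowest at 17.4 CPM. Receptor and GATA cofactors had 6 of 14 higher and 0 lower against CON, beside the same shares, with a median of 0.05, and 4 higher and 5 lower against NT. Beside NRIP1, KMT2C (0.49), KMT2D (0.21, divided reads) and CARM1 (0.11), all chromatin-modifying enzyme genes, were the highest.

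Other mammary transcription factors had 6 of 29 higher (all genes 26.9%), 10 lower (27.4%) and 13 within counting error against CON, with a median of -0.05. Against NT 9 were higher, 8 lower and 12 within counting error, with a median of 0.00. SNAI2, a zinc finger repressor of basal cells, was at 6.48, 7.0 and 9.37 CPM in NT, CON and GSK484, with log2 folds of 0.42 (interval 0.26 to 0.58) against CON and 0.53 (0.36 to 0.70) against NT. By TPM these were 0.52 and 0.51. ID2, an inhibitor of helix-loop-helix factors, had -0.68 by CPM and -0.10 by TPM, SNAI1 -0.37 and CEBPD -0.28. Against NT, ID2 was lower (-0.48), and SNAI1 (-0.05) and CEBPD (-0.03) were within counting error. Myoepithelial contractile genes had 2 of 7 higher (all genes 26.9%) and 0 lower against CON, CALD1 at 0.44 and OXTR, the oxytocin receptor gene, at 0.49 (interval 0.02 to 0.98). Against NT 3 were higher and 2 lower, CALD1 being lower (-0.08) and OXTR within counting error (0.46). CNN1, the smooth muscle calponin gene, was listed at 0 TPM in every library. Of 4 measured markers of other cell types, 3 were lower against CON (all genes 27.4%), CDH5 (-0.74), CD14 (-0.55) and FABP4 (-0.41), and 0 were higher. For CON against NT 3 were higher and 0 lower, CDH5 at 0.69 and CD14 at 0.23. For GSK484 against NT 1 of 3 was higher and 2 lower, CD14 (-0.32) and FABP4 (-0.40). The libraries came from an established cell line, and the source of these transcripts in it was not tested.

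For the factors with the lowest and highest fold against CON, the closest patterns over the 3 libraries were sought among 8535 genes of at least 10 CPM, as the Euclidean distance between centred log2 CPM values. Nearest to ELF3 were TRIM31, a ubiquitin ligase gene (distance 0.035), MGP, a matrix calcification inhibitor gene (0.038), and the mitochondrially encoded MT-ATP6 (0.048, divided reads). TRIM31 was at 13.8, 17.2 and 11 CPM in NT, CON and GSK484, and MGP at 206, 248 and 168 CPM. Both were highest in CON and lowest in GSK484, as ELF3 was. Nearest to BCL11A were ANPEP, an aminopeptidase gene (0.082), PLAU, the urokinase gene (0.083, divided reads), and the pseudogene RPL4P4 (0.088, divided reads). ANPEP was at 13.7, 15.3 and 18.8 CPM and PLAU at 132, 142 and 178 CPM. Over 3 libraries such likeness describes an order of levels and little more.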

How the data were processed

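RNA-seq gene tables of 3 MCF10Ca1h libraries, 1 per group, were used. Per the labels' protocols, a stranded total RNA kit and paired 125 bp reads were used. Per the submitters' processing notes the tools were RSEM and build hg19. The sources used here give no other upstream settings. The deposited expected counts are RSEM estimates of reads per gene, not normalized, per the file headers. TPM values, as deposited, account for effective length and sum to the same total in each table. Weighted transcript lengths are also those the authors deposited.

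Expected counts were scaled to CPM with TMM factors (edgeR 4.0.16, R 4.3.3) of 1.01, 0.981 and 1.01 for NT, CON and GSK484. The prior count in log2 folds was 0.5, and intervals took rounded counts. No test was made, since each group is 1 library. Counts were whole within 0.005 where called whole. The fold and interval code was tested on simulated data.

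Symbols came from a gene name table matched by ID (49995 of 56632 IDs). GENCODE 29, of another build, gave GC content of the longest transcript (97.2% of measured genes) and, from its own coordinates, the genes that overlap a factor or lie within 5000 bases of it. None of its coordinates are printed. CD24 and PECAM1 were not analysed here, and a few other listed genes are not reported here and were left out of the list counts. Promoters were those of RefSeq, GRCh38.p14, the first listed for each factor.

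Alternatives were total-count scaling, DESeq2 1.42.0 size factors, TPM with a pseudocount of 0.1, a prior count of 2, a CPM minimum of 0.1, a fold minimum of 1.5, and removal of a spline trend on GC content and length fitted to 8648 coding genes with a mean of 10 CPM or more. For TPM, the counting interval was shifted by the ratio of effective lengths and scaling. Named genes were the 10 factors, up to 4 genes of each list with the largest absolute fold against CON beyond counting error, family genes of at least 1 TPM, and the 3 genes closest in pattern to the factors of lowest and highest fold. Marker genes fixed to check the cell line, and genes listed at 0, were also named. The factors and lists were chosen with earlier results of these data known.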

Additional observations from a re-analysis of the deposited data

How the results depend on the processing

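No paired analysis was possible because each group has 1 library, and for the same reason no replicate could be left out. There were 135 log2 folds of the factors under these alternatives. Of them 118 kept their side of counting error, with the same sign where they exceeded it. Another 5 fell within it, 7 came to exceed it and 5 changed sign with counting error exceeded before or after. A fold within counting error both times was taken as kept whatever its sign. EHF for GSK484 against CON, at -0.01 in the main setting and 0.03 by total counts, was such a case. With a prior count of 2 all 27 were kept. By TPM, GATA3 was 0.15 for GSK484 against CON, and for CON against NT GATA3 was -0.02, FOXA1 -0.12 and SOX9 -0.07. With the GC and length trend removed, TP63 was 0.15 for CON against NT. The GATA3 fold for GSK484 against NT then lay within counting error, at 0.07, and the TP63 one exceeded it, at 0.16. By TPM, 7 factors instead of 4 exceeded counting error for GSK484 against CON, SOX9, GATA3, GRHL2 and ESR1 being added and BCL11A dropped. By total counts it was 6, SOX9 (0.06) and ESR1 (0.37) being added, the ESR1 interval starting at 0.00. The all-gene median for this comparison was 0.10 by TPM and -0.01 by CPM in the main setting. The share of all genes beyond counting error is given here for the main setting only. For CON against NT, SOX9 fell within counting error by total counts (0.01) and DESeq2 size factors (0.03). A fold minimum of 1.5 placed 1 factor, ELF3, past the size rule for GSK484 against CON. Over all genes, that minimum gave 468 for GSK484 against CON, 398 for GSK484 against NT and 1078 for CON against NT, where the minimum of 2 gave 62, 72 and 222. A CPM minimum of 0.1 gave 832, 819 and 1106. With the trend removed there were 46 for GSK484 against NT and 65 for CON against NT. Summing ELF3 with its 2 overlapping genes, an alternative chosen after seeing the data, kept all 3 of its folds. ELF3 held 97.7% to 98.1% of the summed counts, so the sum could hardly move these folds. Apart from the counts set by a changed minimum, the causes of these moves were not tested. Depth limits ESR1 and ELF5 most.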

Other observations

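KMT2C, a histone methyltransferase gene, was at 13.6 CPM in NT and 13.5 in GSK484, a log2 fold of 0.00, while its TPM was 2.82 in NT and 4.92 in GSK484, a log2 fold of 0.78. The ELF3 locus, by contrast, gave the same direction for ELF3 and ELF3-AS1 in GSK484 against both libraries, by CPM and by TPM. Both genes had divided reads, so their shared direction is no separate support for either gene.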
